A study of Mus musculus with 17 samples.

Results

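Cd83 and Tnfsf8 are 2 of the 47643 rows of a gene count table made from regulatory T cells (Tregs) of different Nfkbid genotypes. Both were chosen by their library-scaled counts in the 17 libraries, as activation genes that were higher with an Nfkbid transgene, so their transgenic levels against the other groups are a description with no test. CD83 is a membrane protein of the immunoglobulin superfamily that appears on mature dendritic cells and on activated B and T cells, where it opposes the MARCH1 ubiquitin ligase and so keeps MHC class II and CD86 on the cell surface. Tnfsf8 encodes CD30 ligand (CD153), a TNF superfamily ligand of activated T cells that binds the receptor CD30, encoded by Tnfrsf8. Nfkbid encodes a nuclear IkB protein that binds NF-kB subunits on DNA and takes part in the induction of Foxp3, the transcription factor that defines Tregs.

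The cells were sorted as GFP-positive Tregs from CD4+ enriched spleen of NOD mice, a strain prone to autoimmune diabetes, and every group carried the Foxp3-GFP reporter. The groups were NOD-60A transgenic mice (6 libraries, 1 sample each), NOD-Nfkbid-KO mice (5 libraries, pools of 2) and NOD controls (6 libraries, pools of 2). The promoter of the transgene, the number of lines and the age and sex of the mice are not given in the sources used here. Transgenic libraries thus differed from both knockout and control libraries in pooling as well as in genotype, and the 2 cannot be told apart. All libraries carry 1 batch label. Their column headers also hold identifiers, 10198 to 10207 in transgenic and 10761 to 10765 in knockout libraries. Controls hold 10202 and 10203 (replicates 1 and 2), 10863 to 10865 (replicates 3 to 5) and 10728 (replicate 6). What these numbers stand for is not given. Transgenic and knockout libraries shared no run of numbers, so that any effect of it cannot be told apart from genotype.

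Totals were 3133388 to 4726615 counts per library, so that 3 counts, the most a true level may hide behind a count of 0, amounted to 0.623 to 1.04 CPM (counts scaled to a common TMM-adjusted library total, as are all levels given). Knockout replicates 2, 3 and 5 had 13476 to 13802 rows above 0, against 15039 and 15931 in the other 2 knockout libraries. Some rows did not behave as the gene they name: B2m had 0 counts in every library and Actb at most 7. Of the markers of sorted Tregs, the Foxp3, Cd4 and Cd3d rows had at least 792, 213 and 1996 counts in every library, whereas the Cd3e row had at most 11 and the rows of the Treg receptors Tnfrsf4 and Tnfrsf18 at most 1. The Nfkbid row held 7.04 to 11.1 CPM in transgenic, 2.24 to 8.31 CPM in knockout and 3.09 to 5.41 CPM in control libraries, with the knockout as high as the controls, so it does not check the knockout label.

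Because of such rows, the place of both genes was examined first. Cd83 (ENSMUSG00000015396) lies on the plus strand of chromosome 13, 43784775 to 43803132 in GRCm38, with 2572 exon bases. Tnfsf8 (ENSMUSG00000028362) lies on the minus strand of chromosome 4, 63831308 to 63861347, with 3807 exon bases. No row of a neighbour within 100 kb had more than 3 counts in all: for Cd83 the Gm23117 row had 0 counts and Gm33115, a long noncoding RNA gene, was not analysed here, and Tnfsf15, Rpl17-ps4 and Tnc near Tnfsf8 had 2, 3 and 2 counts summed over 17 libraries.

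The exons of all rows within 5 Mb were then moved together along the chromosome, by up to 60 kb either way, and the bases that fell on annotated exons were compared with the rows' counts. Around Cd83 the rank correlation across 100 rows was 0.66 unmoved and highest at a move of 20 kb, with 0.712. Around Tnfsf8 it was 0.556 unmoved and highest at 14 kb, with 0.714 across 145 rows. At those moves the Cd83 row covered 0 of its own exon bases and the Tnfsf8 row 11, and neither covered an exon of another gene. With rows within 2 Mb the best move near Cd83 was 4 kb, at which it covered 172 of its own exon bases, and that near Tnfsf8 was again 14 kb. Of 121 moves, the Cd83 row fell on Cd83 exons in 15, on exons of Gm33115 in 11 and on no annotated exon in 95, and the Tnfsf8 row on Tnfsf8 exons in 31, on other exons in 2 and on none in 88. Each best move is the highest of 121 and was not tested against the unmoved value, which compares counts with the rows' own exon bases. Whether the reads counted in both rows come from these genes was therefore not settled by position. What follows describes the rows that carry the names. The same holds for all other rows named here.

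**Figure D1:**
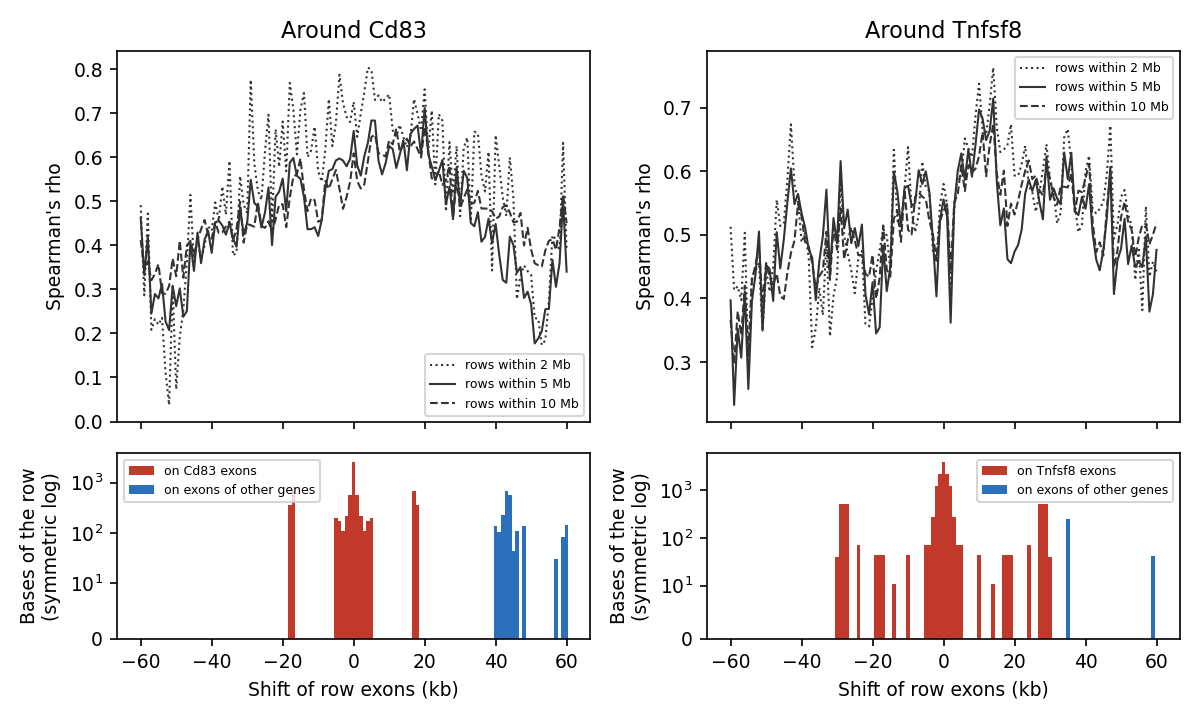
Agreement of row counts with annotated exons when rows near Cd83 (left) and Tnfsf8 (right) are moved along the chromosome. The upper panels plot Spearman's rho across rows within 2, 5 or 10 Mb against the move in kb, and the lower panels plot how many bases of the moved Cd83 or Tnfsf8 row lie on its own exons (red) or on exons of other genes (blue), on a symmetric log axis; with rows within 5 Mb the highest rho lies at 20 kb on the left and at 14 kb on the right.

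Of the 2 genes, 1 matched the table of RefSeq promoters. The 187 bases before the annotated start of Tnfsf8 (chr4:63861348-63861534, minus strand, GRCm38.p6) are shown because they hold the sequence just upstream of the CD30 ligand transcript. Capitals mark the only match found to 3 motifs of T cell activation factors.

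Tnfsf8: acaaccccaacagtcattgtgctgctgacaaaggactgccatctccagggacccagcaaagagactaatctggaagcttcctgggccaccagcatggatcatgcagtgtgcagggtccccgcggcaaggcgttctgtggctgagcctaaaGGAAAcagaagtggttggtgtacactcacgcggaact

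That match is the NFAT core GGAAA, which 61.3% of the 32851 promoter windows of 300 bases hold on either strand. The NF-kB consensus motif, held by 4.5% of the windows, and the AP-1 motif TGANTCA, held by 7.8%, had no match in the Tnfsf8 window on either strand, and no match overlapped another.

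The Cd83 row was higher in all transgenic libraries than in any knockout or control library, by fitted folds of 1.92 over knockout and 2.38 over control libraries. It held 58.0, 68.7, 56.7, 65.1, 62.3 and 63.0 CPM in transgenic replicates 1 to 6. In knockout replicates 1 to 5 it held 30.0, 33.5, 21.4, 28.2 and 49.4 CPM. In control replicates 1 to 6 it held 23.3, 23.9, 21.1, 27.7, 31.2 and 30.3 CPM. Knockout replicate 5 came nearest to the transgenic range, and knockout and control libraries overlapped. Among all 9986 tested rows, 7.4% were called between transgenic and control libraries and 10.7% between transgenic and knockout libraries (edgeR adjusted p under 0.05). Of all 9986, 207 rows had a larger log2 fold change than Cd83 against control and 557 against knockout libraries. How many rows separate the groups as fully was not counted. The genes were chosen on their transgenic levels, so nothing is read from these contrasts. The Cd83 row had 168 to 222 counts per transgenic, 75 to 151 per knockout and 78 to 112 per control library.

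Means were 62.3 ± 4.44 CPM (SD, n = 6) in transgenic, 32.5 ± 10.4 CPM (SD, n = 5) in knockout and 26.2 ± 4.10 CPM (SD, n = 6) in control libraries. The spread relative to the mean was 7.13% in transgenic, 32.1% in knockout and 15.6% in control libraries. The fitted log2 fold change was 1.25 (SE 0.16) for transgenic against control libraries and 0.94 (SE 0.17) for transgenic against knockout libraries. In bulk RNA, more cells with a transcript and more transcript per cell cannot be told apart.

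The Cd83 row did not detectably differ between knockout and control libraries. The log2 fold change of knockout against control libraries was 0.31 (SE 0.17, adjusted p = 0.276, edgeR's quasi-likelihood test), with 3 of 5 knockout libraries inside the range of the controls, and 2 SE either way spans -0.03 to 0.64. The value was 0.11 without knockout replicate 5, the library with the highest Cd83 level of that group. Between these 2 groups 1.89% of the tested rows were called, 0.881% higher and 1.01% lower in knockout libraries.

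**Figure D2:**
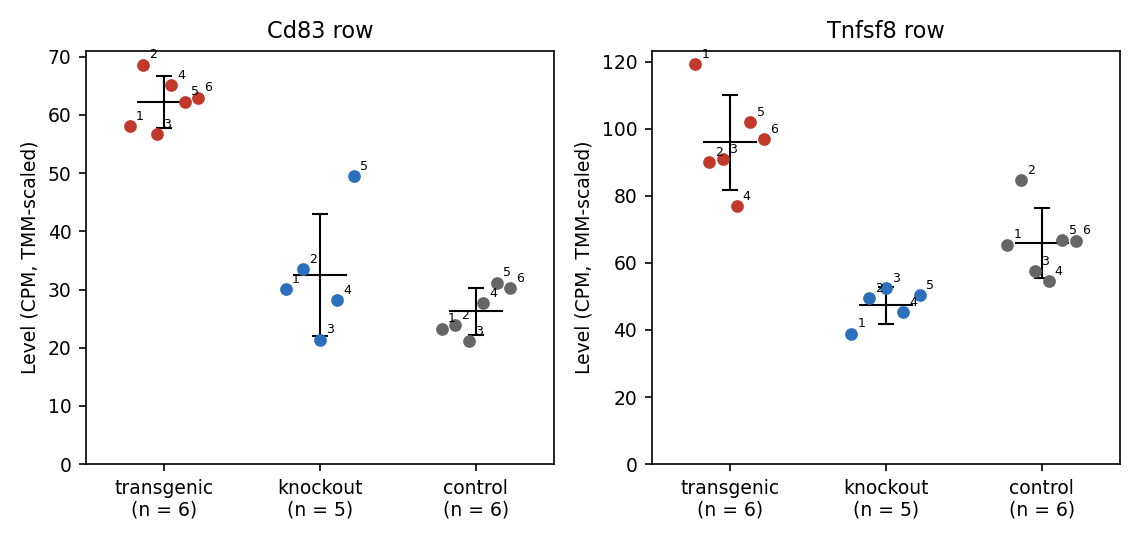
Level of the Cd83 row (left) and the Tnfsf8 row (right) in each library, in TMM-scaled CPM, for transgenic, knockout and control groups; numbers are replicate labels, and bars are the mean and SD. Transgenic libraries hold 56.7 to 68.7 CPM of Cd83, above all others, while Tnfsf8 runs highest in transgenic libraries, lowest in knockout libraries and between them in controls.

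The Tnfsf8 row was graded over the 3 genotypes. It held 119, 90.0, 90.9, 76.8, 102 and 96.9 CPM in transgenic replicates 1 to 6. In knockout replicates 1 to 5 it held 38.9, 49.5, 52.5, 45.3 and 50.4 CPM. In control replicates 1 to 6 it held 65.5, 84.6, 57.6, 54.6, 66.8 and 66.6 CPM. Transgenic and control libraries overlapped through control replicate 2, which lay above transgenic replicate 4, whereas knockout libraries overlapped with neither of the other groups. How many other rows stand apart in this way was not counted.

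Means were 96.0 ± 14.2 CPM (SD, n = 6) in transgenic, 47.3 ± 5.39 CPM (SD, n = 5) in knockout and 66.0 ± 10.5 CPM (SD, n = 6) in control libraries. The fitted log2 fold change was 0.54 (SE 0.12) for transgenic against control libraries, a fold of 1.45. It was 1.02 (SE 0.13) for transgenic against knockout libraries, a fold of 2.03. The columns of control replicates 1 and 2 carry header identifiers from the same run of numbers as the transgenic libraries. Against those 2 controls alone the transgenic value was 0.35 for Tnfsf8 and 1.4 for Cd83. Against controls 3 to 6 alone it was 0.65 for Tnfsf8 and 1.18 for Cd83.

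In knockout against control libraries the Tnfsf8 row had a log2 fold change of -0.48 (SE 0.13). The genes were picked for their transgenic levels, but with the levels of all 17 libraries in view, so the tests of knockout against control libraries are not independent of the choice. All 5 knockout libraries lay below all 6 controls, at 38.9 to 52.5 against 54.6 to 84.6 CPM. In this comparison 8448 of 9986 tested rows had a higher log2 fold change, and how many rows separate the groups likewise was not counted. The Tnfsf8 difference missed the threshold in edgeR's quasi-likelihood test over all rows (adjusted p = 0.059). It passed with DESeq2 (adjusted p = 0.024). In edgeR fits with part of the controls, chosen after seeing the data, the size of the difference depended on the controls used. It was -0.67 with controls 1 and 2 only (adjusted p = 0.238) and -0.37 with controls 3 to 6 only (adjusted p = 0.209). An exact permutation test of the 5 against 6 log2 levels gave a two-sided p = 0.0043, unadjusted and the smallest this design can give. Any row without overlap of these groups would receive that value, so it adds nothing to the ranges above. Whether the Tnfsf8 difference would be called therefore depends on the test used.

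**Figure D3:**
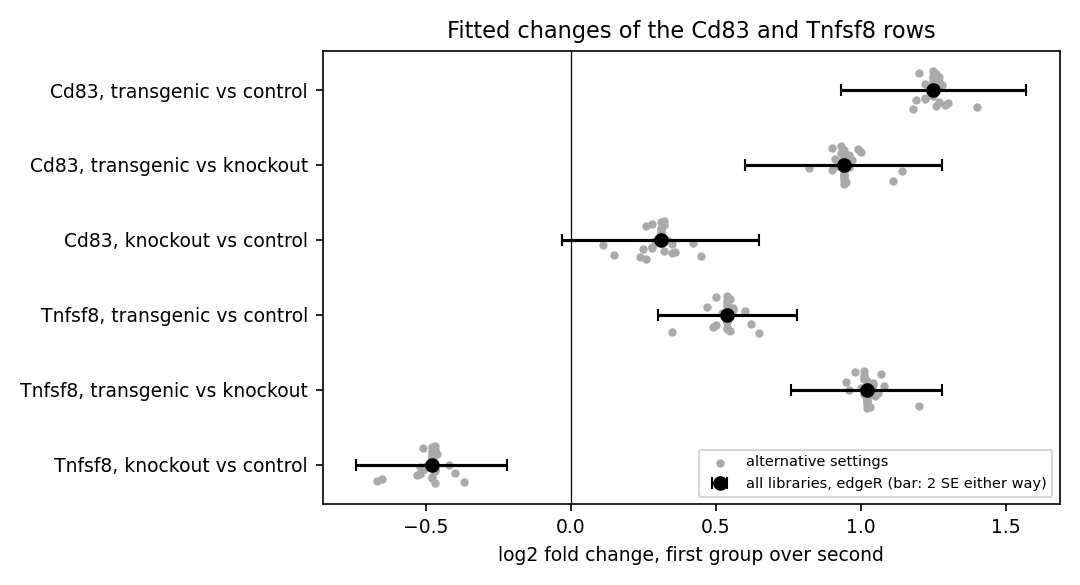
Fitted log2 fold changes of the Cd83 and Tnfsf8 rows in each of 3 comparisons, first group over second. Black points with bars are the fit to all libraries with 2 SE either way, and grey points are alternative settings; only Tnfsf8 in knockout against control libraries is below 0, at -0.48, and Cd83 in knockout against control libraries is the one bar that crosses 0.

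Both rows were therefore higher in transgenic libraries but stood differently between knockout and control libraries. The number of Tnfsf8 counts per Cd83 count, a ratio within each library that does not depend on library scaling, ran from 1.18 to 2.05 with a median of 1.57 in transgenic libraries. It ran from 1.02 to 2.45 with a median of 1.48 in knockout libraries and from 1.97 to 3.54 with a median of 2.47 in control libraries. On the log2 scale the ratio was lower by 0.74 in knockout than in control libraries, with means of 0.59 ± 0.47 (SD, n = 5) and 1.33 ± 0.32 (SD, n = 6), and an exact two-sided permutation test gave p = 0.0173. This comparison was chosen after the levels had been seen. The highest knockout ratio, 2.45 in replicate 3, lay inside the range of the controls. Without knockout replicates 2, 3 and 5, which leaves 2 knockout libraries, the difference was -0.8 with an exact p = 0.0714, the smallest that 2 against 6 libraries can give.

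**Figure D4:**
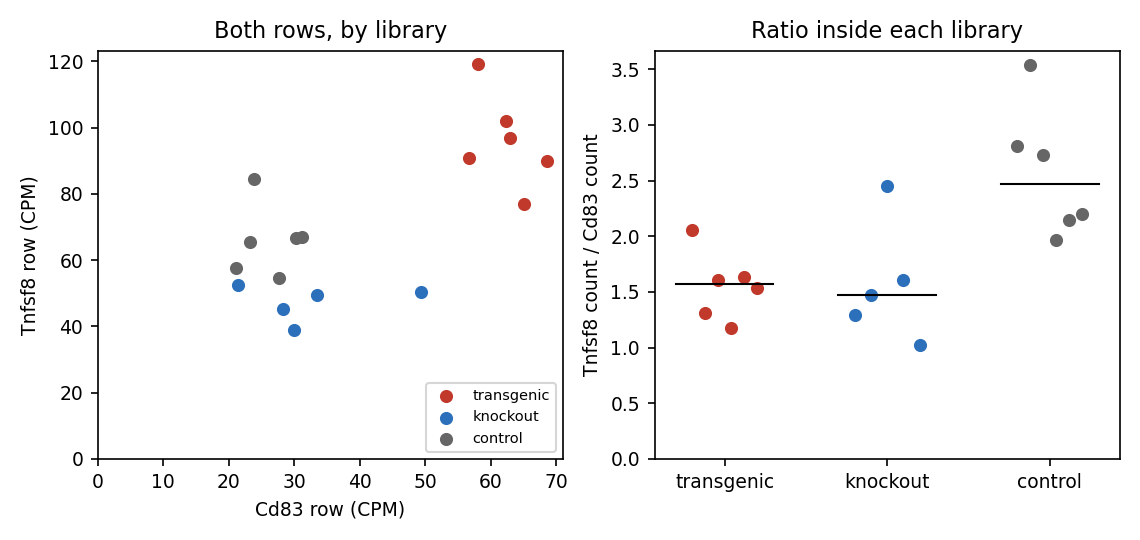
Left, the Tnfsf8 row against the Cd83 row in CPM, with 1 point per library. Right, Tnfsf8 counts per Cd83 count in each library, with the median as a line; medians are 1.57 in transgenic, 1.48 in knockout and 2.47 in control libraries.

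Within the transgenic and the control group no joint rise and fall of the 2 rows was detectable. Across the 6 transgenic libraries Pearson's r of their log2 CPM was -0.504 (exact permutation p = 0.308, adjusted over the 2 groups tested p = 0.617) and Spearman's rho was -0.6 (exact permutation p = 0.242, adjusted p = 0.483). Across the 6 control libraries r was -0.001 (exact permutation p = 0.997, adjusted p = 0.997) and rho was 0.371 (exact permutation p = 0.497, adjusted p = 0.497). Without the 2 libraries farthest from the median of Cd83, r was -0.94 and -0.462 over the remaining 4 of each group. The relation was not computed for the 5 knockout libraries, since only groups of 6 were used.

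Other rows followed each member more closely. Over all 17 libraries, among 5732 rows whose log2 CPM averaged 3 or more, the rows most like Cd83 were Eif2b3 (r = 0.955), Zc3h12d (0.953), Hcst (0.935), Unkl (0.914) and Pgghg (0.913), with Tnfsf8 at rank 275 (0.637). Zc3h12d, named after a CCCH zinc finger RNase family that restrains immune activation, was also the closest when group means were removed (0.862). It held 56.4 to 61.9 CPM in transgenic, 31.9 to 50.1 CPM in knockout and 33.3 to 42.4 CPM in control libraries, and its highest knockout library was replicate 5, as for Cd83. In these deviations Dnali1 (0.843), Eif2b3 (0.831), Map3k5 (0.823) and Son (0.804) came next, and Tnfsf8 had -0.055.

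For Tnfsf8 the closest rows over 17 libraries were Ubxn4 (r = 0.895), Usp6nl (0.892), Entpd1 (0.891), P3h3 (0.889) and Manbal (0.884). Entpd1, the gene of the ectonucleotidase CD39 that Tregs carry, held a mean of 13.8 CPM in transgenic, 2.20 CPM in knockout and 6.37 CPM in control libraries. That is the order of the Tnfsf8 groups, which a pick by likeness over the same libraries favours, so nothing is read from it. With group means removed, rows among the closest were Trim7 (0.845), Cmtr1 (0.833), Cep295nl (0.83) and Tia1 (0.827). These coefficients describe likeness over libraries that share groups and scaling, and rows were picked for the highest values. Coefficients over all 17 libraries include the transgenic levels for which Cd83 and Tnfsf8 were chosen. Hcst, for one, averaged 170.0 CPM in transgenic, 1.89 CPM in knockout and 0.597 CPM in control libraries, and met the minimum level only through the transgenic group. Entpd1, and Pgghg among the rows like Cd83, also averaged below the minimum level in knockout and in control libraries.

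The partners of both proteins were barely counted. The row of Tnfrsf8, the CD30 receptor that CD30 ligand binds, had at most 1 count in a transgenic library and 0 in all knockout and control libraries. Rows of March1, the ligase that CD83 opposes, and of the MHC class II gene H2-Aa had at most 2 and 1 counts in transgenic libraries and 0 in knockout and control libraries, and Cd86 had at most 6, 3 and 4 counts in transgenic, knockout and control libraries. Given that B2m also stood at 0, these rows do not say whether the transcripts were present.

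Of 16 other rows named for TNF superfamily ligands only 3 had counts enough to be tested. None of these 3 was called in any comparison, a count too small to be read against the 7.4%, 10.7% and 1.89% of all rows called for transgenic against control, transgenic against knockout and knockout against control libraries. Lta, the lymphotoxin alpha gene, held 5.83 to 10.7 CPM in transgenic, 3.42 to 7.81 CPM in knockout and 4.04 to 10.6 CPM in control libraries, with log2 fold changes of 0.44 for transgenic against control, 0.76 for transgenic against knockout and -0.33 for knockout against control libraries. Tnfsf10, the TRAIL gene, had 0.26, 0.47 and -0.22 in the same order of comparisons, which are also the medians of the 3 rows, against -0.01, 0 and -0.02 over all tested rows. Fasl, the Fas ligand gene, had the opposite signs, with -0.16, -0.28 and 0.12. Of 18 rows named for TNF receptors 2 were tested. Ltbr, the lymphotoxin beta receptor gene, was lower in transgenic libraries by edgeR's test, with a log2 fold change of -1.38 against control (SE 0.36, adjusted p = 0.019) and -1.56 against knockout libraries (SE 0.37, adjusted p = 0.008), at 1 to 6 counts in transgenic, 12 to 18 counts in knockout and 10 to 22 counts in control libraries. The Ltbr call ended in 5 of 27 alternatives against control and in 2 of 28 against knockout libraries, and Fas was not called.

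Among rows named for the MHC class II and costimulation genes that CD83 acts on, 3 of 9 were tested (March8, Ciita and Cd80) and 0 were called in any comparison, a count too small to be read against 7.4%, 10.7% and 1.89% of all rows called. Ciita, the gene of the class II transactivator, held means of 47.4 CPM in transgenic, 58.0 CPM in knockout and 48.1 CPM in control libraries.

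Activation genes as a group did not follow Cd83 and Tnfsf8. Of 28 rows on a list of T cell activation and resting-state genes 16 were tested. Against controls 0 were higher and 1 lower in transgenic libraries, where 5.23% of all rows were higher and 2.17% lower, and the median log2 fold change was 0.01. The row that was lower was Satb1, a chromatin organiser of resting T cells. Against knockout libraries 4 were higher and 0 lower, where 6.34% and 4.33% of all rows were, with a median of 0.4. These 4 were Ctla4 (0.75), an inhibitory receptor, Irf4 (0.66), a transcription factor of effector Tregs, Ikzf3 (0.92), the lymphoid factor Aiolos, and Ccr7 (2.77), a lymph node homing receptor of resting cells. Of these, Irf4 held means of 35.2 CPM in transgenic, 22.2 CPM in knockout and 25.2 CPM in control libraries, while Ccr7 rested on means of 3.04 CPM in transgenic and 0.425 CPM in knockout libraries. The Ikzf3 call ended in 9 of 28 alternatives. Between knockout and control libraries 0 of the 16 were called in edgeR's adjusted test. The immediate activation genes Cd69, Nr4a1 and Egr1 were at 0 counts throughout.

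Rows named for NF-kB subunits, IkB proteins and their regulators, which act on activation genes such as Cd83, were better counted, with 20 of 22 tested. In transgenic against control libraries 3 were higher and 1 was lower, where 5.23% and 2.17% of all tested rows were, with a median of 0. Of the 3 that were higher the largest change was that of Bcl3, another nuclear IkB protein, at 33.0 ± 6.41 CPM (SD, n = 6) in transgenic, 8.40 ± 2.44 CPM (SD, n = 5) in knockout and 13.9 ± 3.64 CPM (SD, n = 6) in control libraries. Its groups stood in the order of the Tnfsf8 groups, with log2 fold changes of 1.97 (SE 0.22, edgeR adjusted p = 2.0e-06) for transgenic against knockout libraries and -0.71 (SE 0.22, edgeR adjusted p = 0.084) for knockout against control libraries. Relb, an NF-kB subunit, and Birc2, an inhibitor of apoptosis, were also higher, and Tnfaip3, the inhibitor A20, was lower. The calls of Relb and Birc2 ended in 14 and 11 of 28 alternatives. Against knockout libraries, where 6.34% of all rows were higher and 4.33% lower, 2 were higher, Bcl3 and Birc2, and 1 was lower, which was Nfkbiz, also a nuclear IkB protein, at -0.57 (SE 0.17, edgeR adjusted p = 0.034), a call that ended in 12 of 28 alternatives. Between knockout and control libraries 0 of 20 were called in edgeR's adjusted test, against 1.89% of all rows.

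**Figure D5:**
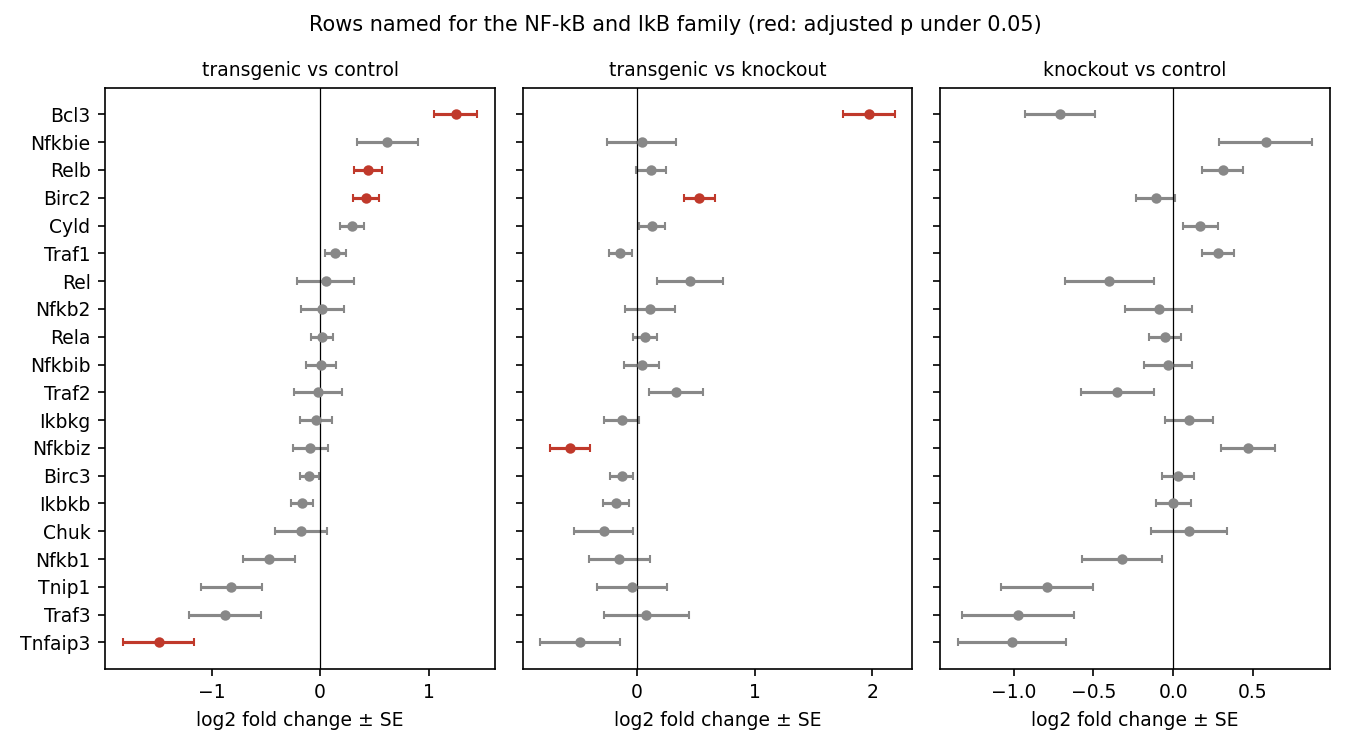
Log2 fold change with SE of each tested row named for the NF-kB and IkB family, in 3 comparisons, ordered by transgenic against control libraries; red points had an adjusted p under 0.05. Bcl3 is the highest in transgenic against control libraries at 1.25 and Tnfaip3 the lowest at -1.49, and no row is red in knockout against control libraries.

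CD83 is also a marker of dendritic cells and B cells, so rows named for other cell types were read beside it. The summed level of 12 dendritic cell rows was 84.1 to 100 CPM in transgenic, 95.04 to 102 CPM in knockout and 71.9 to 96.3 CPM in control libraries, with Xcr1 and Batf3 at 0, 3 rows tested and 0 called for transgenic against control libraries. The summed level of 12 B cell rows was 183 to 280 CPM in transgenic, 174 to 269 CPM in knockout and 223 to 309 CPM in control libraries, with Cd79b, Blk and Fcmr at 0 and 0 of 3 tested rows called for transgenic against control libraries. For 12 monocyte and macrophage rows the sums were 51.6 to 67.0 CPM in transgenic, 47.0 to 66.8 CPM in knockout and 49.8 to 62.1 CPM in control libraries, with C1qa, C1qb and C1qc at 0. For 10 NK and CD8 T cell rows they were 8.29 to 32.3 CPM in transgenic, 14.7 to 43.9 CPM in knockout and 20.8 to 23.8 CPM in control libraries. None of these ranges set transgenic libraries apart from controls as the Cd83 row did. Against knockout libraries the B cell row Ighm was higher and the dendritic cell row Flt3 lower in transgenic libraries, and Flt3 was higher in knockout than in control libraries, a call that ended in 16 of 28 alternatives. The part of these rows in the Cd83 and Tnfsf8 levels was not tested. Of 12 Treg marker rows 10 were tested, and 4 were higher in transgenic than in control libraries (Ikzf2, Izumo1r, Nt5e and Entpd1), against 5.23% of all rows. Against knockout libraries 4 were higher as well (Ctla4, Izumo1r, Nt5e and Entpd1), against 6.34% of all rows, while Foxp3 was not called in any comparison. In knockout against control libraries, where 1.89% of all rows were called, Entpd1 (-1.55) and Izumo1r (-0.35), the folate receptor 4 gene, were lower and Ikzf2 (0.53), the Helios gene, was higher, and these calls ended in 4, 22 and 19 of 28 alternatives.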

How the data were processed

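PolyA RNA of sorted Tregs was sequenced (67 bp reads, 9 bp molecular identifiers), as the design text states. Expected counts for each gene were deposited by the authors; alignment with Bowtie2 to GRCm38 and Ensembl 102 transcripts is per the submitters' processing notes and the design text. No source used here says whether the identifiers served to remove duplicates, and floors of 3 counts therefore cover counting error only. Of 47643 rows, 47224 matched a symbol in GENCODE M21 (GRCm38) or the gene name table.

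Counts were rounded (5.87% of values were not whole) and fitted with edgeR 4.0.16 (R 4.3.3): TMM, filterByExpr, all 17 libraries, quasi-likelihood test, Benjamini-Hochberg over 9986 rows, threshold 0.05. The fit was tested on simulated data. Levels are CPM with TMM-scaled totals. Each SE is the log2 fold change over the root of its F statistic. Permutation tests used scipy 1.17.1. Alternatives were left-out libraries, a replicate block, RLE or upper-quartile scaling, no filter on low rows, counts left unrounded, a fit to the 2 compared groups alone, DESeq2 1.42.0, and voom in limma 3.58.1. The replicate numbers did not pair the libraries. Within groups, every pair of libraries differed by more than sampling noise. Library names carry different sample identifiers, but the labels do not say that these are separate mice, so a p-value here speaks only of the spread among libraries, which may be technical.

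Both genes and all gene lists were chosen with earlier results of these data known. Named rows are both genes, their neighbours within 100 kb, the 5 rows most like each, up to 4 called rows of each list and comparison with the smallest adjusted p, and Tnfrsf8, March1, Nfkbid and Foxp3; partner and marker rows at or near 0 were named after their values were seen. The likeness ranking left out rows with predicted or clone names and receptor segments. Not every row the ranking names is reported here.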

Additional observations from a re-analysis of the deposited data

Results flagged for a closer look

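None of the 9 groups of member values examined (the Cd83 row, the Tnfsf8 row and their ratio in each genotype) held a library beyond the 95% critical value of Dixon's test.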

How the results depend on the processing

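The Cd83 row kept its direction in every setting run: 1.18 to 1.4 in 28 settings for transgenic against control libraries, 0.82 to 1.14 in 28 for transgenic against knockout libraries and 0.11 to 0.45 in 29 for knockout against control libraries, uncalled in each of the 29. The Tnfsf8 row likewise ran from 0.35 to 0.65, 0.95 to 1.2 and -0.67 to -0.37 on the log2 scale. For Tnfsf8 in knockout against control libraries the difference passed the threshold with no filter on low counts (-0.51, adjusted p = 0.047) and with DESeq2 (-0.47, adjusted p = 0.024). The exact permutation test (-0.47, p = 0.0043) was not adjusted over all rows, so its p is not comparable with that threshold. Leaving out 1 library gave -0.53 to -0.4, with adjusted p from 0.031 without transgenic replicate 1 and 0.041 without knockout replicate 4 to 0.111. With the replicate number as a block it was -0.46 (adjusted p = 0.142). Same-numbered libraries correlated at -0.517 to 0.364, so the numbers do not pair them. The cause of these changes was not tested.

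Rows called for transgenic against control libraries (739) were 1226 with only the 2 groups, 1348 without knockout replicates 2, 3 and 5, 151 with controls 1 and 2 only and 529 to 876 without single libraries. For transgenic against knockout libraries (1065) they were 632 with only the 2 groups, 670 with the replicate block and 735 to 1641 without single libraries, the highest without transgenic replicate 1. For knockout against control libraries (189) they were 571 with no filter, 573 with DESeq2, 76 with only the 2 groups, 67 with the block, 43 without knockout replicates 2, 3 and 5, 22 with controls 1 and 2 only, 94 with controls 3 to 6 only and 88 to 1124 without single libraries, highest without knockout replicate 4. The settings on controls, and the Tnfsf8 to Cd83 ratio, were chosen after seeing the data. The ratio difference of -0.74 was -0.92 to -0.6 without single libraries and -0.8 without knockout replicates 2, 3 and 5, where the exact p = 0.0714 is the smallest that 2 against 6 libraries can give and so says nothing about stability. The best move near Cd83 was 4 kb with rows within 2 Mb, in place of 20 kb.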
